A study of Mus musculus with 22 samples.

Results

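The 4 ganglion cells taken at P0, the day of birth, were set against the 5 amacrine cells of the same stage, which together are 9 of the 22 single mouse retinal cells in the series. The labels name each cell's type and stage, and the cells are called here as there: ganglion cells A3, C6, A6 and F1, and amacrine cells A4, D1, F6, G3 and B1. Every list of values below keeps that order. Each cell was picked by capillary from a retina dissociated with papain and lysed alone, and its cDNA was amplified by 35 cycles of PCR before hybridisation to an Affymetrix mouse 430 2.0 array. No treatment is named for these 9 cells, and their labels give no allele, strain or animal. The types were assigned after profiling, so a difference in a marker of either type is not independent evidence of that type. Cells that may come from 1 animal or litter are not replicates, so each type counts as 1 sample, the values of the cells are given one by one, and no test was made.

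Ganglion cells are the output neurons of the retina: they collect signals from bipolar and amacrine cells, release glutamate and send long axons through the optic nerve to the brain. Amacrine cells are interneurons of the inner retina that mostly release GABA or glycine and, in most kinds, have no axon that leaves the retina. In the newborn mouse ganglion cells are growing and pruning their central projections, while many amacrine cells have only recently been born and are still settling in their layers.

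The deposited MAS5 signals were brought to a trimmed mean of 500 on every array, which changed only amacrine cell B1, deposited at a trimmed mean of 18.1. Signals below a floor of 200 (log2 7.64) were raised to it before log2 transformation, and a gene at 1000 or more in a cell is called held by that cell. Single cells differed widely in how many genes they held. The numbers were 3481, 3084, 2293 and 4352 in ganglion cells and 1928, 2030, 4132, 2972 and 2484 in amacrine cells. A gene held by a whole type thus asks 4 ganglion cells to agree and a gene held by the other type 5 amacrine cells. Ratios of 3′ to 5′ control probe sets, a measure of cDNA length, were 0.852 to 1.22 for Gapdh in ganglion cells and 0.742 to 1.01 in amacrine cells, and those for actin were 1.81 to 4.51 and 1.44 to 2.13.

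Marker lists were read in each cell. Since the types were assigned after profiling, the lists of the 2 types describe the cells and cannot check their labels. Of 21 ganglion markers on the array, ganglion cells held 9 to 14 and amacrine cells 1 to 4, with summed signals of 122220 to 296047 and of 20931 to 46887. Of 24 amacrine markers, ganglion cells held 2 to 5 and amacrine cells 4 to 9, with summed signals of 30031 to 58145 and of 98704 to 302100. Photoreceptor markers were all but absent from both types, since 22 of 23 were held by none of the 9 cells, and no cell held any of 13 pigment epithelium and lens genes. Of 7 horizontal cell markers, 1 of which is Tfap2b, ganglion cells held 0, 0, 1 and 1, against 2, 1, 3, 1 and 2 in amacrine cells, with summed signals of 487 to 9156 and of 15896 to 62817. Several cells stood apart in some way. Amacrine cell D1 held Gad1 and Tfap2b but also 6 of 13 glial markers and 6 of 23 progenitor and cell cycle genes, among them Slc1a3, a glial glutamate transporter (5856), Fgf15, a progenitor growth factor (11958), Top2a, a topoisomerase of dividing cells (11507), and Mcm6, a replication helicase subunit (33789). D1 held 4 ganglion markers and 4 amacrine markers, while ganglion cell A3 held 5 amacrine markers, so the counts of type markers alone do not place D1. Ganglion cell F1 held 4 of the glial markers, and the other 7 cells held 1 or 2. Ganglion cell C6 held 6 progenitor and cell cycle genes too, while the other ganglion cells held 0 to 3 and the other amacrine cells 2 to 4. Amacrine cell F6, which held most genes of its type, and ganglion cell F1, which held most genes of all, had a Spearman correlation of 0.418 over the 4335 genes compared. This was the highest of the 20 pairs between types, which began at 0.119 and had a median of 0.191. Correlations were 0.18 to 0.304 between amacrine cells and 0.226 to 0.424 between ganglion cells. Ganglion cell A6 held the fewest genes of its type and lacked many that the other 3 ganglion cells held. The genes named here for D1 were picked after their values were seen. The part of these cells in the results was not tested, and counts without them are given where they move.

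Over all genes, 4335 of 18194 passed the filter of 1000 or more in at least 3 of the 9 cells. The median difference, mean log2 signal of ganglion minus amacrine cells, was 0.28, and 2498 genes (57.6%) had a positive difference against 1837 (42.4%) with a negative one. At 8-fold or more, 225 genes were higher in ganglion cells (5.19%) and 70 were lower (1.61%). That gave ganglion cells 76.3% of these genes, 91.9% with the signals as deposited and 59.7% without ganglion cell F1. In 87 of the 225 and 16 of the 70 the cells of the types did not overlap. Of the 225 and the 70, 9 and 4 are on the ganglion or amacrine marker lists. Only 12 ganglion and 8 amacrine markers passed the filter, so no more than a few could be among them. Of the 12 ganglion markers 8 were 8-fold higher (66.7%, beside 5.19% of all genes) and 0 lower. Of the 8 amacrine markers 4 were 8-fold lower (50.0%, beside 1.61%) and 1 higher. With types assigned after profiling, these shares are not independent evidence of type. The strictest pattern, held by all 4 ganglion cells and by no amacrine cell, was met by 32 genes (0.738%), and its converse, held by all 5 amacrine cells and by no ganglion cell, by 5 genes (0.115%). By contrast 251 genes (5.79%) were held by all 9 cells. Leaving out any cell loosens these patterns by construction, since fewer cells must then agree. The ganglion pattern was met by 69 genes without ganglion cell C6, 100 without A6 and 67 without amacrine cell F6, and by 35 to 44 without each other cell. The amacrine pattern was met by 12 genes without ganglion cell F1, and by 13, 13, 9 and 11 without amacrine cells A4, D1, F6 and B1. The count of genes lower in ganglion cells was 140 without ganglion cell F1 and 108 without amacrine cell D1.

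**Figure D1:**
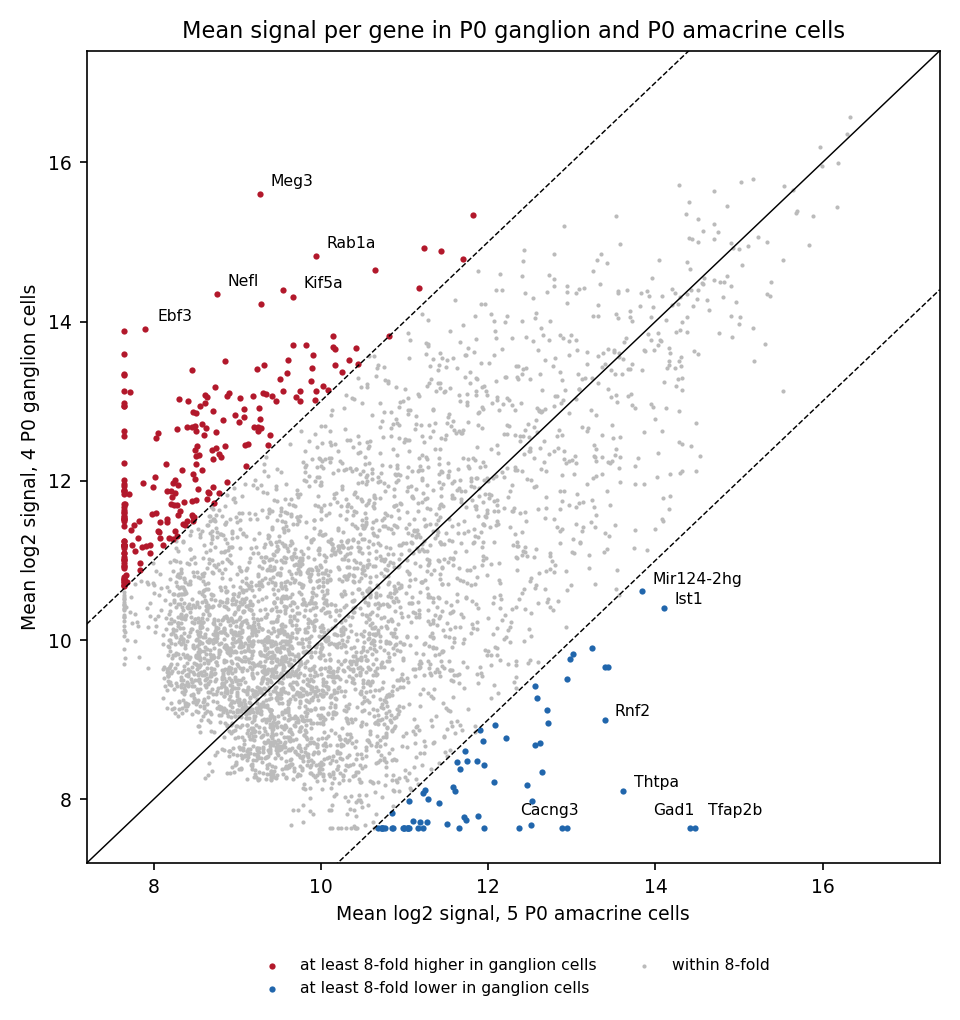
Mean log2 signal of each of the 4335 genes in the 4 P0 ganglion cells (vertical axis) against the 5 P0 amacrine cells (horizontal axis), where 1 point is 1 gene, the solid line marks equality and the dashed lines an 8-fold difference. The 225 red points above the upper dashed line outnumber the 70 blue points below the lower, and many red points stand at the floor of 7.64 on the amacrine axis.

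Of the 32 genes of the ganglion pattern, 28 are on neither type marker list. Wherever some cells of the lower type were under the floor and no cell of the higher type was, the difference is a bound and is written as such. Ddah1 had the largest difference: it encodes an enzyme that breaks down methylated arginines, which inhibit nitric oxide synthase. Its signals were 14501, 14979, 11478 and 20604 in ganglion cells, against 127, 5.1, 66.1, 84.2 and 206 in amacrine cells, a difference of at least 6.23. The 4 ganglion values lie close together, far above all 5 amacrine values. Tub, a tubby-family protein that binds membrane phosphoinositides, had 17925, 12559, 7595 and 13665 in ganglion cells, against 188, 47.9, 161, 99.1 and 34.4 in amacrine cells, a difference of at least 5.95. S100a10, the p11 partner of annexin A2, had 6352, 16718, 5333 and 20749 in ganglion cells, against 180.1, 35.6, 13, 8.5 and 59.5 in amacrine cells, a difference of at least 5.70. Both were high in every ganglion cell and under the floor in every amacrine cell. Dip2a, a homologue of the fly disco-interacting protein, was at 15353, 4192, 27359.6 and 6323 in ganglion cells, against 29, 15.3, 22.3, 2.6 and 88.4 in amacrine cells, a difference of at least 5.68. Sphkap, an anchoring protein for protein kinase A, was at 17638, 19602, 2401 and 7646 in ganglion cells, against 53.4, 30.3, 43.3, 7.0 and 30.5 in amacrine cells, a difference of at least 5.48, with ganglion cell A6 the lowest of its type. Dram2, a lysosomal membrane protein linked to autophagy, was at 7086, 8904, 18347 and 5272 in ganglion cells, against 2.3, 54.7, 52.2, 260.5 and 47.1 in amacrine cells, a difference of at least 5.39. Among the amacrine cells only G3 was above the floor for any of these 3 genes, for Dram2. Supt20, a subunit of the SAGA histone acetyltransferase complex, was at 3661, 14880.3, 22291 and 3185 in ganglion cells, against 3.7, 128, 39.4, 86.7 and 7.3 in amacrine cells, a difference of at least 5.30, although 5 of its 7 probe sets lay within 1 of 0. Probe sets often disagreed in this way: of the 26 pattern genes with several, 20 had at least 1 within 1 of 0, and with the mean over all probe sets 14 genes met the pattern. Averaging probe sets also took 44 of the 77 named genes past 8-fold to under it, with 2.50 left for Ddah1 and 1.32 for Supt20.

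Smaller differences followed among the pattern genes on neither marker list. Tenm3, a teneurin that guides the mapping of ganglion cell axons and dendrites in the mouse, was at 16397, 16814, 1694 and 2897 in ganglion cells, against 186, 134, 77.1, 143 and 166 in amacrine cells. Shtn1, or shootin 1, which couples actin flow to adhesion in growing axons, was at 2284, 9568, 7736 and 1054 in ganglion cells, against 7.0, 101, 99.2, 2.6 and 7.6 in amacrine cells. Both were under the floor in every amacrine cell, with differences of at least 4.92 and at least 4.19. Pde7a, a phosphodiesterase that degrades cAMP, was at 1891, 2700.4, 23160.0 and 2158 in ganglion cells, against 5.7, 161, 83.5, 3.3 and 16.1 in amacrine cells, with ganglion cell A6 far above the others. Rcan3, a regulator of the calcium-dependent phosphatase calcineurin, was at 7512, 1457, 6012 and 2968 in ganglion cells, against 9.8, 170.4, 61.3, 59.1 and 17.3 in amacrine cells. Rcan2, a relative of Rcan3 singled out after its values were seen, was at 1922, 6002, 2186 and 1866 in ganglion cells, against 9.8, 169, 854, 8.5 and 77.1 in amacrine cells, so both regulators were held by the 4 ganglion cells and no amacrine cell. Cblb, a ubiquitin ligase that damps receptor signalling, was at 5544, 3147, 25996 and 2793 in ganglion cells, against 5.8, 12, 751, 33.1 and 42.2 in amacrine cells, with F6 the one amacrine cell above the floor. Tdrkh, a tudor-domain protein of small RNA biogenesis, had ganglion signals of 3058, 4995, 9898 and 1192 against amacrine signals of 20 to 247. Dhx57, a putative RNA helicase, had ganglion signals of 3915, 2687, 9841 and 2528 against amacrine signals of 37.3 to 315. Ganglion cell A6 was the highest of its type for Cblb, Tdrkh and Dhx57. For Rsbn1, a nuclear protein, the ganglion signals were 2125, 12130.0, 1849 and 2645 and the amacrine signals 2.7 to 213. Beyond the 20 with the largest differences, the other 12 genes of the pattern had differences from at least 4.03 for Psme4, a proteasome activator picked after its value was seen, to at least 3.03 for Cacng4, which is described with the calcium genes below. The remaining 4 of the 32 are ganglion markers: Ebf3, Nrn1, Rbpms and Slc17a6, with ganglion signals of 5895 to 44339.5, 1242 to 31571, 1173 to 32506 and 3369.8 to 5647 and no amacrine signal above 490.5.

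**Figure D2:**
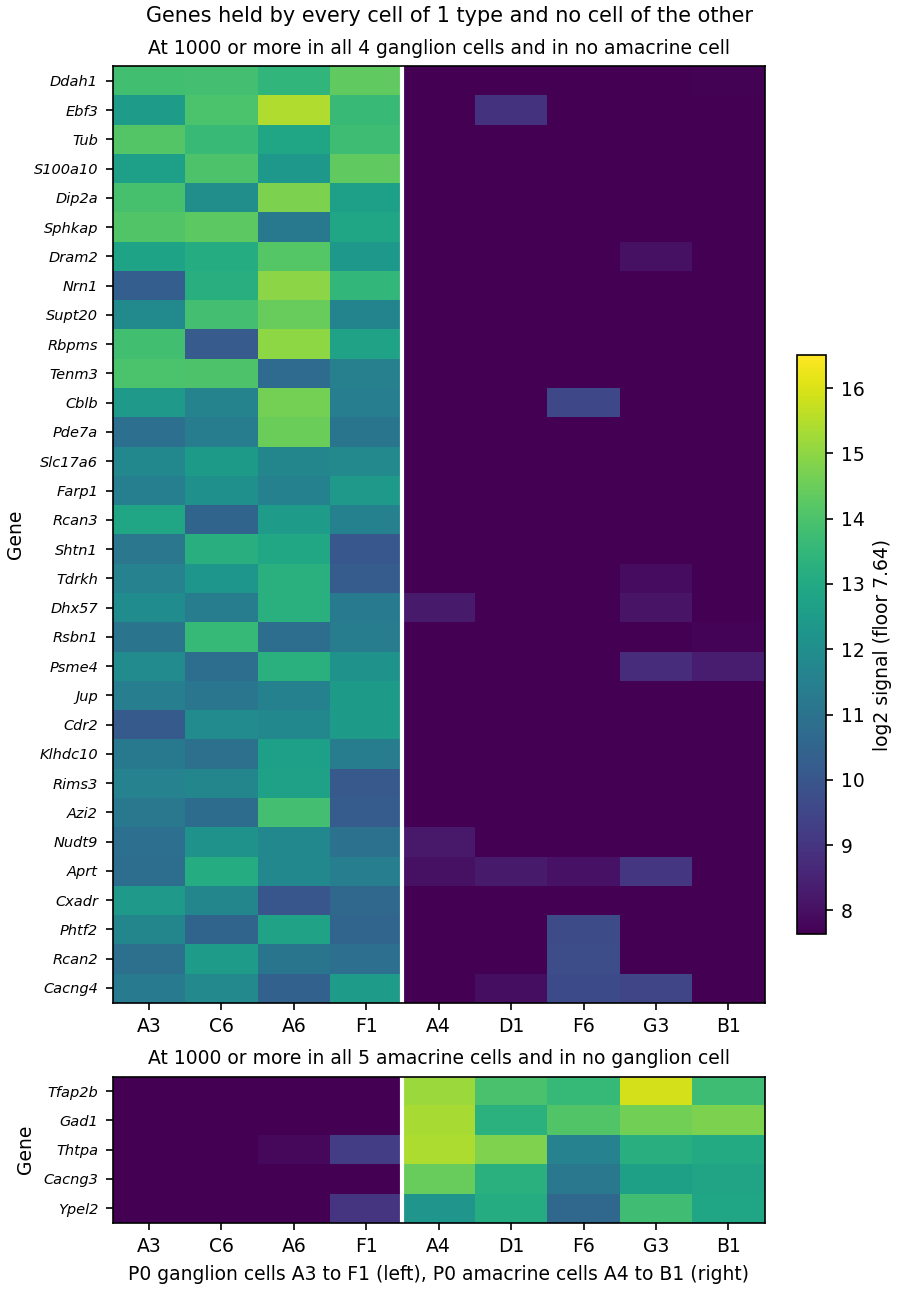
Log2 signal (colour, floor 7.64) of the 32 genes held by all 4 P0 ganglion cells and no P0 amacrine cell (upper panel) and of the 5 genes with the converse pattern (lower panel), with 1 row per gene and 1 column per cell, ganglion cells left of the white line. Most amacrine values of the upper panel sit at the floor, with the brightest exceptions in F6 and G3, and most ganglion values of the lower panel do too.

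Ebf3, a factor of the EBF family, was itself held by every ganglion cell and no amacrine cell, so promoters were searched for the EBF core CCCNNGGG, which reads the same on both strands. They run from 250 bases before to 50 after the start in RefSeq's GRCm38.p6. Promoters were listed for 24 of the 32 ganglion pattern genes, and 8 of these genes (33.3%) hold the core in at least 1 promoter. The same was so for 1 of 5 genes of the amacrine pattern (20.0%). Among the 3575 genes that passed and had a promoter listed, the share was 21.8%. Of all promoters listed 13.7% hold it, but these were counted singly and not by gene, so that share is not like the others. The AP-2 core GCCNNNGGC, also the same on both strands and never overlapping an EBF core in these promoters, is in 7 of the 24 genes (29.2%) and 0 of the 5. The share was 31.7% for the genes that passed, and 16.6% of all promoters counted singly. A match is a description of the letters and not a binding site.

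Among genes with no overlap that some amacrine cells held, Meg3 differed most. This imprinted long noncoding RNA had 27135, 71110.3, 121159 and 26225 in ganglion cells, against 101, 13807, 95.5, 708 and 232 in amacrine cells, a difference of at least 6.33. The highest amacrine cell, D1, lay below the lowest ganglion cell, F1. Snhg11, another long noncoding RNA, known as a host of small nucleolar RNAs, had 21154, 13407, 50430.1 and 14922 in ganglion cells, against 57.9, 6483, 34.8, 50 and 4569 in amacrine cells, a difference of at least 4.84, and was held by amacrine cells D1 and B1 as well. Malat1, a nuclear long noncoding RNA, had 13457, 7458, 29329.6 and 1418 in ganglion cells, against 144, 3.5, 4213, 126 and 279.5 in amacrine cells; here amacrine cell F6 overlapped the ganglion cells, and the difference was at least 4.35. Of the 8 long noncoding RNAs that passed the filter, these 3 were 8-fold higher (37.5%, beside 5.19% of all genes) and none was 8-fold lower (0%, beside 1.61%). Miat was held by all 9 cells at a difference of -0.18, and Tug1 was held by 1 of 4 ganglion and 3 of 5 amacrine cells at -1.77. The list's median was -0.13, and its sign turned in 11 of 20 alternatives.

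Prnp, the prion protein, was at 14555, 9108, 11925 and 8490.2 in ganglion cells, against 75.2, 191, 3419, 6.1 and 9.5 in amacrine cells, a difference of at least 4.93. Rab1a, a GTPase of transport from the endoplasmic reticulum to the Golgi, was at 26164, 37715, 48214 and 14729.8 in ganglion cells, against 94.6, 2154, 9606, 1122 and 101 in amacrine cells, a difference of at least 4.88. Pdcd4, which restrains translation, was at 10147, 11077, 6349 and 6842 in ganglion cells, against 19, 20.7, 1985, 145 and 5.6 in amacrine cells, a difference of at least 4.72. In each of these F6 was the highest amacrine cell. Rbbp7, a histone-binding subunit of chromatin complexes, was at 8793, 16899.5, 20758 and 6011 in ganglion cells, against 27.1, 6.2, 3773, 714 and 53.3 in amacrine cells, a difference of at least 4.65. Kif5a, a neuronal kinesin heavy chain that carries neurofilaments and other axonal cargo, was at 22150.2, 43250.3, 12432 and 14380.5 in ganglion cells, against 38.6, 50.3, 8397, 5299.7 and 139 in amacrine cells, a difference of at least 4.64. Every ganglion cell lay above every amacrine cell for both, and amacrine cells A4, D1 and B1 were under the floor for each of them. Nefl, Gap43 and Pou4f1, all ganglion markers, also had no overlap, at differences of at least 5.59, at least 4.94 and at least 4.99.

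Cytoskeletal and transport lists had 1 or 2 members each past 8-fold. Of 23 kinesins, dyneins and transport genes that passed, Kif5a (4.35%, beside 5.19% of all genes) was the only one 8-fold higher and none was 8-fold lower. Their median was 0.73 beside 0.28 for all genes, with 16 positive (69.6%, beside 57.6%). Of 22 tubulins and microtubule proteins 16 were positive and 2 were 8-fold higher (9.09%). Map6, which stabilises microtubules, was at 7669.8, 2055, 11599 and 10107 in ganglion cells, against 138, 125, 2541, 4116 and 41.4 in amacrine cells, and Map1b, a microtubule protein of growing axons, at 4638, 171, 36214 and 1993 in ganglion cells, against 213, 313, 165, 429.8 and 254 in amacrine cells. Ganglion cell C6 was under the floor for Map1b and overlapped the amacrine cells. Tubb3 and Stmn2, neuronal microtubule genes, were held by all 9 cells. Among 5 neuronal intermediate filament genes Nefl alone passed 8-fold (20.0%, beside 5.19% of all genes), with 16421, 52616, 14059 and 15401 in ganglion cells, against 78, 8.9, 4.6, 19.9 and 9499.7 in amacrine cells. The related Ina had 22597, 19628, 24222 and 21085 in ganglion cells, against 20806, 12888, 15337, 13487 and 42136 in amacrine cells, a difference of 0.22. By this probe set the internexin gene was held by all 9 cells, while the light neurofilament gene was held by the ganglion cells and B1. The other 2 of the 3 Ina probe sets, however, were lower in ganglion cells by at least 1 on the log2 scale. Nefm was at 455, 54100.3, 31.2 and 18754 in ganglion cells, against 15.7, 3949.7, 99, 1223 and 8.7 in amacrine cells and was below 1000 in ganglion cells A3 and A6. Of 29 growth cone and actin genes 13 were positive and 16 negative, at a median of -0.06 whose sign turned in 7 of 20 alternatives. All 9 cells held 14 of them, and Gap43 and Ablim1, an actin-binding LIM protein, were the only members past 8-fold (6.9%, beside 5.19% of all genes). Ablim1 was at 15434, 1109, 61.2 and 15056 in ganglion cells, against 206, 258, 30.2, 146 and 141 in amacrine cells, with A6 under the floor. Map1b was at 2.18 without ganglion cell A6 and Ablim1 at 2.82 without A3, both under 8-fold.

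Adhesion molecules had a median of 1.51 over 16 genes, of which 13 were positive (81.2%, beside 57.6% of all genes) and 2 at 8-fold or more (12.5%, beside 5.19%). L1cam, an immunoglobulin adhesion molecule of axon bundling, was at 6460.0, 12212, 3386 and 6609 in ganglion cells, against 1689.9, 119, 169, 5569 and 246 in amacrine cells, a difference of at least 3.38. Nfasc, or neurofascin, which anchors sodium channels at axon initial segments, was at 2509, 4622, 319 and 2416 in ganglion cells, against 59.6, 12.8, 9.3, 176 and 48.5 in amacrine cells, a difference of at least 3.11, held by ganglion cells other than A6. Neither was past 8-fold without some cell, since L1cam was at 2.97 without amacrine cell D1 and Nfasc at 2.64 without ganglion cell C6. Flrt2, a fibronectin leucine-rich transmembrane protein, was held by 3 ganglion cells and no amacrine cell, at 3996, 2.3, 4735 and 1478 in ganglion cells against at most 707 in an amacrine cell. Of 9 axon guidance genes that passed 7 were negative (77.8%, beside 42.4% of all genes), with a median of -1.04 (0.06 with no filter on dim genes). Over all 30 such genes on the array, however, the cells held 5, 6, 4 and 13 in the ganglion type, against 6, 5, 9, 3 and 7 in the amacrine type, with ganglion cell F1 highest. Sema4d, a class 4 semaphorin, was at 3.1, 43.4, 38 and 27.8 in ganglion cells, against 7875, 16914, 10.6, 13.9 and 6739 in amacrine cells, a difference of -3.36, and Slit2, a secreted ligand of Robo receptors, at 89.7, 61.8, 63.2 and 15.5 in ganglion cells, against 10109, 63.4, 1587, 67 and 7789 in amacrine cells, a difference of -2.79. No ganglion cell was above the floor for either gene, and amacrine cells A4 and B1 held both. Sema4d was at -2.59 without amacrine cell D1. Dcc, the netrin receptor of ganglion cell axons, was held by ganglion cells A3, C6 and F1 but also by amacrine cells F6 and B1, a difference of 1.30.

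Of 7 sodium and potassium channel genes that passed 2 were 8-fold higher (28.6%, beside 5.19% of all genes) and 1 lower (14.3%, beside 1.61%). Scn3b, a sodium channel beta subunit, was at 6204, 418, 5496 and 5801 in ganglion cells, against 95.9, 15, 9.4, 7.3 and 34.2 in amacrine cells, a difference of at least 3.91. Scn3a, the alpha subunit of the embryonic sodium channel Nav1.3, was at 4876, 3819, 601 and 6143 in ganglion cells, against 30.6, 2.2, 0.9, 28.7 and 376 in amacrine cells, a difference of at least 3.67. Neither was held by an amacrine cell, and each stood below 1000 in a different ganglion cell, C6 for Scn3b and A6 for Scn3a. Kcnk1, a two-pore potassium leak channel, was at 3.2, 56.8, 14.6 and 181 in ganglion cells, against 9.1, 5495, 7561, 10.2 and 37817 in amacrine cells, a difference of -3.52, held by amacrine cells D1, F6 and B1. The difference for Kcnk1 was -2.51 without B1 and -2.56 with the signals as deposited, under 8-fold. The list had a median of 1.75 that turned negative without ganglion cell A3 or F1 and with detection at 500.

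Of 8 genes of the calcium channel and buffer list that passed, 3 were 8-fold higher (37.5%, beside 5.19% of all genes), S100a10 among them. A further 1 was lower (12.5%, beside 1.61%), and 2 of these 4 belong to the stargazin-like subunits that accompany AMPA-type glutamate receptors. Cacng4 was at 2448, 3589, 1360.4 and 5821 in ganglion cells, against 144, 249, 786, 713 and 17.2 in amacrine cells, a difference of at least 3.03 (2.69 without ganglion cell F1). Cacng5, which was on no list and was singled out after its values were seen, was at 10990.0, 8462, 9248 and 5894 in ganglion cells, against 32.1, 25084, 31.2, 5.5 and 150.4 in amacrine cells, a difference of at least 4.0, with only amacrine cell D1 overlapping. Cacng3 was at 10.3, 6.6, 43.2 and 15.6 in ganglion cells, against 22285, 9928, 2319, 6582 and 7178 in amacrine cells, a difference of -5.23 or lower. The ganglion cells thus held Cacng4 and Cacng5 in all 4 cells and Cacng3 in none, and the amacrine cells held Cacng3 in all 5, Cacng4 in none and Cacng5 in 1. Cacng2, or stargazin, was held by amacrine cells F6 and B1 alone, at 6561 and 12406, and was also picked after its values were seen. The AMPA receptor subunit genes Gria2 and Gria1 differed by 1.63 and -0.30, both less than 8-fold. Among calcium-binding proteins on this list, Calb2, or calretinin, is also listed as an amacrine marker. Yet it was at 20079, 10131, 314 and 22979.5 in ganglion cells, against 32.5, 43.6, 834, 76 and 109 in amacrine cells, a difference of at least 4.54. It was held by ganglion cells other than A6 and by no amacrine cell, with F6 the highest of these. Hpca, or hippocalcin, was held by 2 of 4 ganglion and 2 of 5 amacrine cells.

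Genes of the synaptic vesicle and its release had a median of 1.27 over 25 members, 18 of them positive (72.0%, beside 57.6% of all genes) and 3 at 8-fold or more (12.0%, beside 5.19%). Pclo, or piccolo, a scaffold of the active zone, was at 6278, 12042, 18689 and 4524 in ganglion cells, against 14.5, 34.9, 3335, 2080.3 and 1685 in amacrine cells, a difference of at least 3.38 with no overlap. Syt4, a synaptotagmin, was at 43316, 40651, 16708 and 21719 in ganglion cells, against 63.8, 2369, 4735, 9824 and 18562 in amacrine cells, a difference of at least 3.09. Sncg, gamma-synuclein and also a ganglion marker, was at 12905, 26518, 415 and 19891 in ganglion cells, against 22, 11947, 190.0, 332 and 156 in amacrine cells. Syt4 was held by all amacrine cells but A4, which was under the floor, and without A4 the difference for Syt4 was 2.07 and that for Pclo 2.85. Rims2, Cplx1 and Rab3a followed at 2.83, 2.81 and at least 2.33. Bsn, or bassoon, the partner of piccolo at the active zone, was at -1.74, and Rims1 was at -1.69. Bsn and Rims1 are named after their values were seen.

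Of 8 transmitter synthesis and transport genes 2 were 8-fold higher (25.0%, beside 5.19% of all genes), Slc18a2 and the marker Slc17a6, and 1 was lower (12.5%, beside 1.61%), the marker Gad1. Gad1, which makes GABA, was at 2.5, 158, 72.9 and 16.5 in ganglion cells, against 41176, 10105, 17573, 24854 and 27644 in amacrine cells, a difference of -6.77 or lower. The second GABA-synthesising enzyme, Gad2, was held by amacrine cells A4 and G3 alone, at 41556 and 12122. Abat, which degrades GABA, was held by ganglion cell F1 at 1008, just above the limit, and by amacrine cells A4, D1 and G3 at 45623, 18629 and 8714. Slc18a2, the vesicular monoamine transporter, was held by 3 ganglion cells and no amacrine cell: its signals were 24508, 6819.6, 201 and 8676 in ganglion cells, against 36.6, 129, 68.2, 84.4 and 2.3 in amacrine cells, a difference of at least 4.37. Ganglion cell A6 was at the floor for it. Slc38a2, a neutral amino acid transporter, differed by -2.59 or lower, and ganglion cell A6, at 5.2, was the only one of the 9 cells without it. Among 11 receptor genes no member was 8-fold apart (0%, beside 5.19% of all genes higher and 1.61% lower).

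Cyclic AMP and G protein genes differed singly. Adcy1, a calcium-stimulated adenylyl cyclase needed for the refinement of retinal projections in the mouse, was at 5245, 21504, 2582 and 10460.2 in ganglion cells, against 262, 15.3, 2722, 98.9 and 74.1 in amacrine cells, a difference of at least 4.38. Gnaq, a G protein alpha subunit, was at 14796, 56.3, 3815 and 8571 in ganglion cells, against 60.4, 98.8, 2018, 119 and 52.6 in amacrine cells, a difference of 3.30. Amacrine cell F6 was the highest of its type for both, and ganglion cell C6 was under the floor for Gnaq. With a floor of 100 another of its 7 probe sets stood for Gnaq, and the difference was 1.28. Of the 7, 4 lay within 1 of 0. Without ganglion cell A3 the difference for Gnaq was 2.56. Camk4, a calcium and calmodulin-dependent kinase, was held by amacrine cells A4, F6 and B1 alone, a difference of -2.95. The 31 signalling genes that passed had a median of -0.30, which changed sign with the signals as deposited, with medians over cells and without ganglion cell A3 or A6 or amacrine cell B1. Of 6 growth factor and receptor genes 1 was 8-fold higher (16.7%, beside 5.19% of all genes). This was Kitl, the ligand of Kit, at 16055, 87.6, 6325 and 1459.8 in ganglion cells, against 2.8, 0.6, 18, 1.6 and 99.9 in amacrine cells, a difference of 3.54 (2.62 without ganglion cell A3).

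On the amacrine side 3 of the 5 pattern genes are on no type marker list: Thtpa, Cacng3 and Ypel2. Thtpa, a thiamine triphosphatase, was at 27.1, 30.5, 230.1 and 616 in ganglion cells, against 44003, 28362, 3010.1, 9645 and 8584 in amacrine cells, a difference of -5.51 or lower. Ypel2, a yippee-like protein, was at 2.3, 8.4, 22.5 and 506 in ganglion cells, against 4933, 8852, 1602, 14004 and 7395 in amacrine cells, a difference of -4.55 or lower. All 5 amacrine cells held each gene, and ganglion cell F1 was the highest of its type for both. The other pattern genes, Gad1 and the AP-2 factor Tfap2b, are markers, and Tfap2b was at 5.1, 146, 22 and 1.7 in ganglion cells, against 36488, 15786, 12288, 62532 and 13878 in amacrine cells.

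Further genes with no overlap were lower in ganglion cells. Rnf2, a ubiquitin ligase of the Polycomb repressive complex, was at 119, 43.9, 2303 and 743 in ganglion cells, against 24302, 35664, 2343, 13037 and 5415 in amacrine cells, a difference of -4.39 or lower. Thap12, a THAP-domain protein, was at 1378, 18.4, 16.3 and 197 in ganglion cells, against 4453, 27511, 1994, 3063 and 14362 in amacrine cells, a difference of -4.30 or lower. With the probe set brightest over the 9 cells alone, the difference for Thap12 was -1.81. Ist1, which acts with the ESCRT membrane-scission machinery, was at 7230.3, 304, 54.9 and 7707 in ganglion cells, against 40864, 16422, 8808, 26593 and 10810.5 in amacrine cells, a difference of -3.70 or lower. All 5 amacrine cells held these 3 genes, and so did 1 or 2 ganglion cells at lower signals, with A6 close below F6 for Rnf2. Ist1 was at -2.78 without ganglion cell A6. Atp1b3, a beta subunit of the sodium pump, was at 3.8, 9.4, 23.9 and 265 in ganglion cells, against 5265, 312, 5056, 4676 and 11714 in amacrine cells, a difference of -3.99 or lower. Lamtor5, a subunit of the Ragulator complex at the lysosome, was at 1554, 4.6, 147 and 1566 in ganglion cells, against 16089, 9224, 7747, 2005 and 5676 in amacrine cells, a difference of -3.58 or lower. Srpk2, a kinase of splicing factors, was at 247, 703, 29.6 and 1064 in ganglion cells, against 8487, 3339, 2409.9, 7208 and 4919 in amacrine cells, a difference of -3.44 or lower. Of the 6 Srpk2 probe sets 4 lay within 1 of 0, and their mean gave -0.73. D1 was the lowest amacrine cell for Atp1b3, G3 for Lamtor5 and F6 for Srpk2, while ganglion cell F1 was the highest of its type for all 3. Zfp866, a zinc finger gene, was at 40.7, 138, 142 and 1.8 in ganglion cells, against 1739, 3754, 590.3, 2396 and 8566 in amacrine cells, a difference of -3.58 or lower. Probe sets disagreed on this side too: of the 48 genes 8-fold lower in ganglion cells with several, 32 had at least 1 within 1 of 0.

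A host transcript of a microRNA was among the genes lower in ganglion cells with no overlap. Mir124-2hg, host transcript of the neuronal microRNA miR-124, was at 1269, 95.8, 5044 and 4787 in ganglion cells, against 17994, 29588, 9979.9, 11864 and 10748 in amacrine cells, a difference of -3.22 or lower. The host of another copy, Mir124a-1hg, looked up after its values were seen, was at 1335, 8.4, 5.7 and 530.1 in ganglion cells, against 39314, 448, 2298, 8773 and 22419.5 in amacrine cells, a difference of -3.88 or lower. Without ganglion cell C6 the difference for Mir124-2hg was -2.23, and with the signals as deposited -2.26, under 8-fold. These probe sets measure the host transcripts and not the mature microRNA, and amacrine cell D1 was under the limit for the second host. Qk, or quaking, a splicing regulator, was at 888, 7.7, 8.8 and 55.4 in ganglion cells, against 44353, 76.4, 7961, 4422 and 18441 in amacrine cells, a difference of -4.28. However, 5 of its 7 probe sets lay within 1 of 0, and the mean over its probe sets gave -0.84. Nova1, a splicing regulator of neurons, was at 546, 121, 19.5 and 2813 in ganglion cells, against 19232, 9269, 4229.5, 10807 and 1692 in amacrine cells, a difference of -3.76 or lower. Amacrine cell D1 lacked Qk, and ganglion cell F1 held Nova1. Celf2, another splicing factor, differed by -2.88 or lower and Msi1, or musashi, by -2.71 or lower. Of 29 RNA-binding genes 1 was 8-fold higher (3.45%, beside 5.19% of all genes), the ganglion marker Rbpms, and 2 were lower (6.9%, beside 1.61%), at a median of -0.48 that turned to 0.25 with the signals as deposited. Hdac9, a histone deacetylase, was at 4.8, 48.2, 7.6 and 7.6 in ganglion cells, against 1036, 1368, 3552, 3132 and 907 in amacrine cells, a difference of -3.09 or lower. Hdac9 is on the chromatin list, of which 17 of 24 members were positive (70.8%) at a median of 0.41. In the other direction its member Dnmt3a, a DNA methyltransferase, was at 3630.3, 245, 9694 and 2620.2 in ganglion cells, against 131, 208, 562, 16.9 and 109 in amacrine cells, a difference of at least 3.14. Hdac9 was at -2.82 without amacrine cell F6 and Dnmt3a at 2.42 without ganglion cell A6.

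Transcription factors differed in both directions. Besides the markers Ebf3 and Pou4f1, ganglion cells other than A6 held Rxrg, a retinoid X receptor, at 4232, 5511, 102 and 3488 in ganglion cells, against 213, 284, 262, 41.9 and 173 in amacrine cells, a difference of 3.13. The same 3 ganglion cells held Bcl11b, a zinc finger factor, at 4885, 4436, 20.4 and 1662 in the 4 cells against at most 124 in an amacrine cell, a difference of 3.03, just past 8-fold, as was seen on looking through the list. Lower in ganglion cells were Nhlh2, which is on the amacrine marker list and belongs to the basic helix-loop-helix family, at 41.9, 58, 48 and 97.8 in ganglion cells, against 48979, 60.8, 13699.8, 7029.9 and 32659 in amacrine cells, and Neurod1, a differentiation factor of the same family, at 97.4, 56, 163 and 7198 in ganglion cells, against 21652, 146, 12075, 3015 and 9776 in amacrine cells. Amacrine cell D1 was under the floor for both, and ganglion cell F1 held Neurod1. Nr4a2, an orphan nuclear receptor, was at 4.4, 300.0, 10.4 and 8.1 in ganglion cells, against 9743, 80933, 7.6, 23587 and 14.9 in amacrine cells, a difference of -4.08, and Zeb2, a zinc finger homeobox factor, at 58.8, 5.6, 47.5 and 53.4 in ganglion cells, against 14.5, 1.1, 3482, 4087 and 18153 in amacrine cells, a difference of -3.0, just short of 8-fold. Nr4a2 was held by amacrine cells A4, D1 and G3 and Zeb2 by F6, G3 and B1, so G3 alone held both. Single cells decided 3 of these calls, since Rxrg was at 2.64 without ganglion cell C6, Neurod1 at -2.57 without amacrine cell A4 and Nr4a2 at -2.98 without amacrine cell D1. Pax6, a homeobox factor known from both types, was held by all 9 cells at a difference of -1.05.

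**Figure D3:**
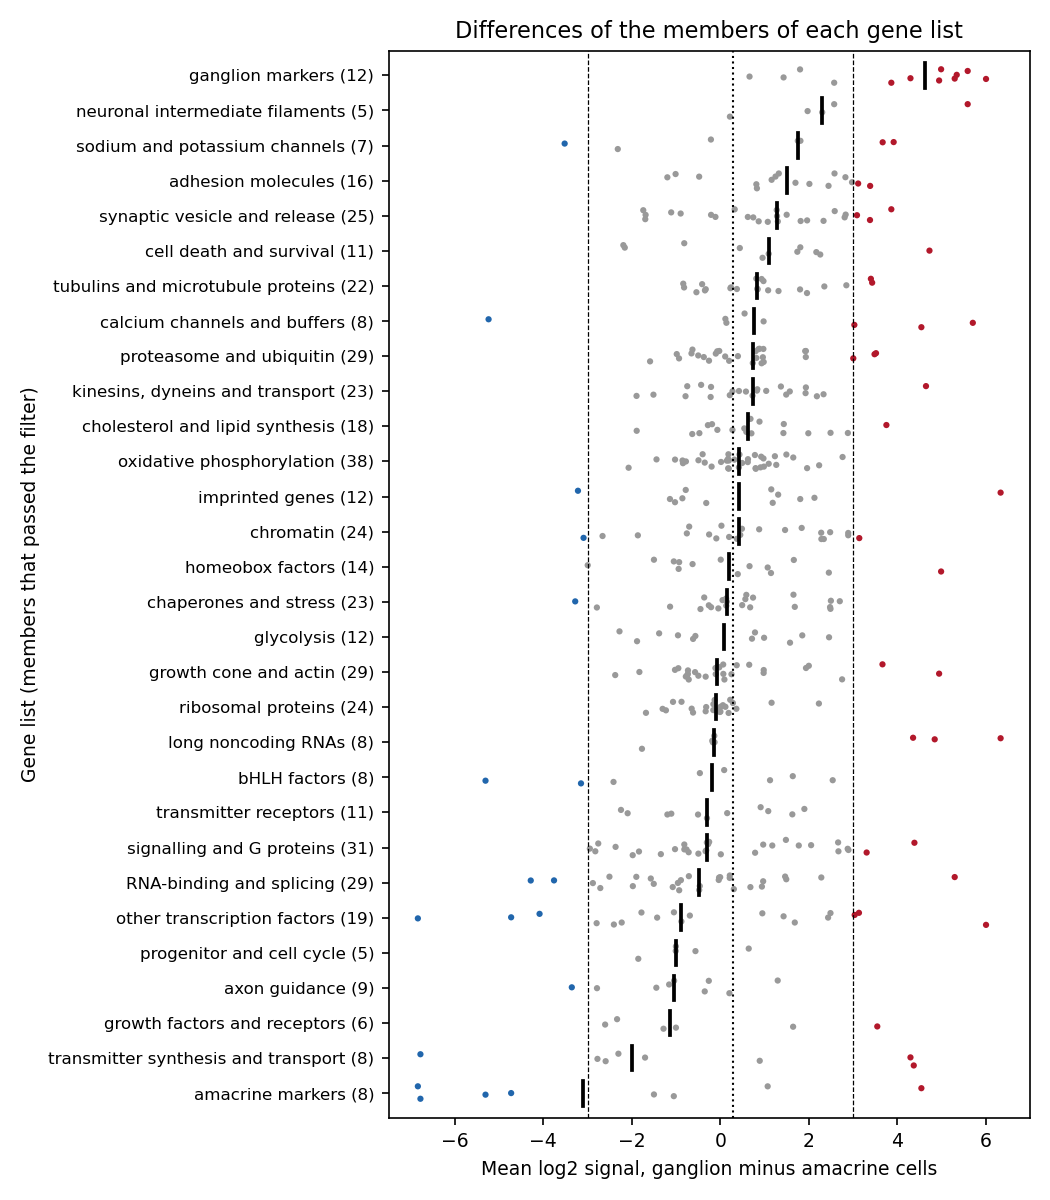
Mean log2 difference, ganglion minus amacrine cells, of each member that passed the filter (points), by gene list, with the list's median as a black bar, dashed lines at 8-fold, a dotted line at the median of all genes (0.28) and red and blue points for members at least 8-fold higher and lower in ganglion cells. Ribosomal, oxidative phosphorylation and glycolysis genes lie between the dashed lines, and the lists of other transcription factors, calcium genes, transmitter synthesis, sodium and potassium channels, RNA-binding, imprinted and chromatin genes have members beyond both, as has that of amacrine markers.

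Of 24 ribosomal protein genes, 38 of oxidative phosphorylation and 12 of glycolysis that passed none was 8-fold higher or lower (0%, beside 5.19% and 1.61% of all genes), with medians of -0.11, 0.43 and 0.08. The sign of the first and the third turned under alternatives, and single members still varied between cells. Ldha, lactate dehydrogenase, was at 4148, 7762, 244 and 3373 in ganglion cells, against 31319.7, 1839, 3369, 42803 and 19425 in amacrine cells and was below 1000 in A6 alone, and Rpl7, a ribosomal protein, at 22976, 42843, 802 and 23143 in ganglion cells, against 67497, 65983, 24786, 16201 and 40107 in amacrine cells, again with A6 as the only cell below 1000. Of 29 proteasome and ubiquitin genes 3 were 8-fold higher (10.3%, beside 5.19% of all genes): Uchl1, a neuronal ubiquitin hydrolase, at 34751, 48690.3, 65234 and 26768 in ganglion cells, against 50, 2233, 13769.9, 15572 and 6540.1 in amacrine cells, Psma1, a proteasome subunit, with at least 3.48, and Ube2n, a ubiquitin-conjugating enzyme, with at least 3.0. A4 was the only amacrine cell without Uchl1. None of the 3 was past 8-fold without some cell, with Uchl1 at 2.47 and Ube2n at 2.21 without amacrine cell A4 and Psma1 at 2.85 without D1. Fdft1, or squalene synthase, was the 1 of 18 lipid synthesis genes past 8-fold (5.56%, beside 5.19% of all genes higher), with at least 3.75. Hsph1, a heat shock protein held by ganglion cell F1 and amacrine cells A4, D1 and B1, had -3.28. It was the 1 of 23 chaperone and stress genes past 8-fold (4.35%, beside 1.61% of all genes lower). Of 12 imprinted genes Meg3 and Grb10, an adaptor of growth factor receptors with -3.22, lay past 8-fold in opposite directions (8.33% each way, beside 5.19% and 1.61% of all genes). Grb10 was at -2.27 without amacrine cell D1 and Hsph1 at -2.48 without A4.

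Within the ganglion type, cells divided in several ways. Isl1, a homeobox factor listed as a ganglion marker, was held by C6 and A6, at 56.2, 10286, 12088 and 974. Irx6, an iroquois homeobox factor, was held by A3 and F1, at 14913, 7.1, 220.0 and 9751. Sox11, of the SoxC group active in young neurons, had the same holders, at 7088, 392, 130.4 and 7370.3. Isl1 and Irx6 thus marked different pairs, with F1 just under the limit for Isl1. Gria1, an AMPA receptor subunit, and Zfhx4, a zinc finger homeobox factor, were held by C6 and A6, at 73.1, 14156, 8705 and 21.9 and at 34.2, 15118, 3635 and 22. Nr2f1, an orphan nuclear receptor, Glrb, the beta subunit of the glycine receptor, and Cacna1b, an N-type calcium channel subunit, were held by A6 and F1. Their signals were 53.7, 236, 36274 and 3823 for Nr2f1, 18.8, 2.4, 20038 and 6903 for Glrb and 22.1, 487, 14804 and 7079 for Cacna1b. Of all genes, 628 were held by A3 and F1 and no other ganglion cell, 478 by C6 and F1, 232 by A6 and F1, 217 by A3 and C6, 140 by C6 and A6 and 135 by A3 and A6. The pairs with F1, which held most genes, were the largest.

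The gaps of single ganglion cells were uneven. Of 127 genes held by 3 ganglion cells and by no amacrine cell, A6 lacked 68, C6 37, F1 12 and A3 10. Those that A6 lacked include Pou4f1, Slc18a2, Calb2, Scn3a and Nfasc. Nell2, a secreted neuronal protein, and Gjd2, the gap junction protein connexin 36, named after their values were seen, were below 1000 in A6 as well, at 13051, 25619.6, 17.6 and 7757 and at 6047, 4087, 69.7 and 5505. A6 nevertheless had the highest signals of its type for Ebf3, Nrn1, Rbpms and Meg3. Its ratio of 3′ to 5′ control probe sets was the highest of its type for actin, at 4.51, but the lowest for Gapdh, at 0.852. The part of cDNA length in the gaps of A6 was not tested.

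Within the amacrine type, F6 and B1 shared a set of genes. Both held Isl1 (2.2, 8.7, 22798, 62.1 and 30027 over the 5 cells), Sox2, a transcription factor (2.4, 4.4, 28154, 10.9 and 34281), and Scg2, a secretogranin (8.6, 66.3, 18071, 88.3 and 33671). Both also held Slc18a3, the vesicular acetylcholine transporter (28.8, 40.6, 7586, 14.4 and 2827), Megf10, a receptor that spaces cells of a kind (60, 56.1, 20581, 12.9 and 27898), and Pdyn, the precursor of dynorphin (9.1, 28.6, 7796, 29 and 12538), named after their values were seen. Chat, which makes acetylcholine and was picked likewise, was held by B1 at 15049 and stood at 4.7 in F6. As background, Isl1, Sox2, Megf10, Slc18a3 and Chat are known from cholinergic starburst amacrine cells, and Isl1 is also a ganglion marker. A4 and G3 instead held Gad2 and Meis2, a homeobox factor of GABA-releasing amacrine cells (27222, 243, 7.0, 37539.7 and 92.1). Nr4a2 and Abat were held by A4, D1 and G3, and Neurog2, a proneural factor, by F6, G3 and B1 (184, 8.0, 10129, 5126 and 26298). Among all genes, 331 were held by F6 and B1 and no other amacrine cell, against 467 by F6 and G3, 218 by D1 and F6, 187 by A4 and F6 and 59 to 132 by the pairs without F6. Of the 28 genes held by 4 amacrine cells and no ganglion cell, A4 and D1 each lacked 8, B1 6, F6 4 and G3 2.

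**Figure D4:**
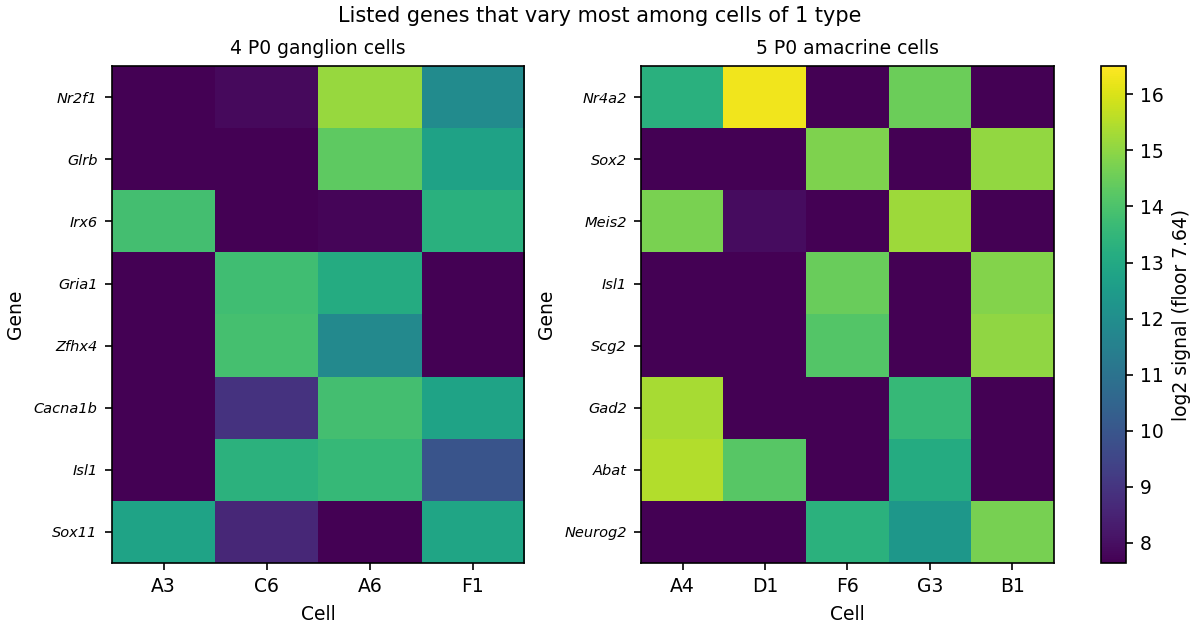
Log2 signal (colour, floor 7.64) of the 8 listed genes that varied most among the 4 P0 ganglion cells (left) and among the 5 P0 amacrine cells (right), with 1 row per gene and 1 column per cell. Among ganglion cells C6 and A6 share Isl1 while A3 and F1 share Irx6, and among amacrine cells F6 and B1 share Sox2, Isl1 and Scg2 while A4 and G3 share Meis2 and Gad2.

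The 2 patterns were then looked up in the other cells of the series. These did not choose the pattern genes, but they entered the choice of each gene's probe set. The 9 embryonic ganglion cells, taken from E12.5 to E15.5 and in part labelled with the CD1 strain, held 8 to 20 of the 32 ganglion pattern genes, a median of 50.0%, and 48.6% of all genes that passed, so as a whole the pattern was held there about as often as other genes. The E16.5 amacrine cell J6 held 9 of the 32 (28.1%) against 59.6% of all genes, and the P0 photoreceptors E1 and H1 held 4 and 5 (12.5% and 15.6%) against 33.1% and 45.2%. The adult rod held 3 (9.38%) against 17.8%. The genes differed among themselves. Ebf3 was held by 9 of 9 embryonic ganglion cells, and S100a10, Rbpms and Psme4 by 8 of 9. Sphkap, Tdrkh and Nudt9, an ADP-ribose hydrolase picked with Psme4 after the values were seen, were held by none of the 9, and Ddah1, with the largest difference at P0, by 3. In all, 8 of the 32 were held by at least 7 embryonic ganglion cells and 11 by at most 2. Of the amacrine pattern J6 held 4 of 5, all but Thtpa, and embryonic ganglion cells held 0 to 2. Gad1 and Tfap2b are amacrine markers, and Ebf3 and Rbpms ganglion markers, so where they are held is not independent evidence of type. Photoreceptor H1 and the adult rod held 2 of these 5 each (40.0%), against 45.2% and 17.8% of all genes, and photoreceptor E1 held 1. Among the 9 embryonic ganglion cells Gad1 and Tfap2b were held by none, Cacng3 and Ypel2 by 1 each and Thtpa by 2. Of the 2 P0 photoreceptors 1 held Gad1, 1 Ypel2 and 1 Thtpa, and none held Tfap2b or Cacng3. The median for the ganglion pattern was 33.3% for the genes chosen without ganglion cell C6 and 34.0% for those chosen without A6.

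**Figure D5:**
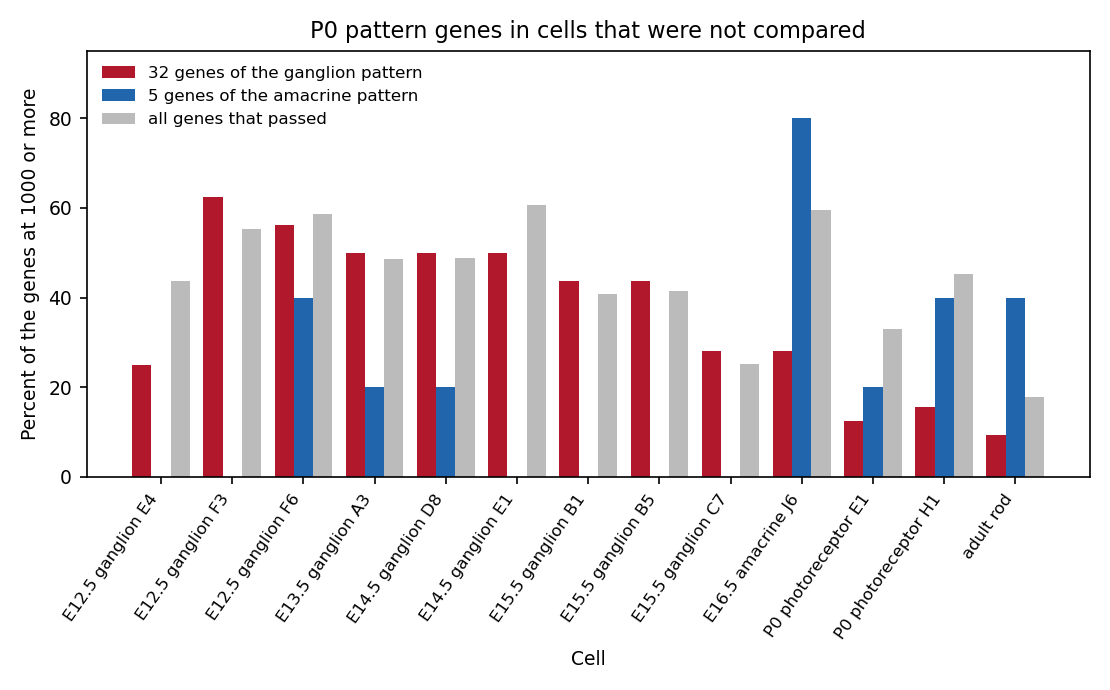
Percent of the 32 genes of the P0 ganglion pattern (red), of the 5 genes of the P0 amacrine pattern (blue) and of all 4335 genes that passed (grey) at a signal of 1000 or more in each of the 13 cells that were not compared. Red and grey bars have similar medians over the 9 embryonic ganglion cells (50.0% and 48.6%), although red is lower in E12.5 cell E4 (25.0% and 43.7%), while red bars are lower than grey in the E16.5 amacrine cell and the P0 photoreceptors. The arrays of the E16.5 amacrine cell and the adult rod had higher median signals than all others.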

How the data were processed

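The authors deposited MAS5 (5.0) signal intensity for 45101 probe sets of each array, per the series' design text and the submitters' processing notes. Scanner files and detection calls were not used here. The papain dissociation, single-cell lysis, oligo dT priming and 35 cycles of PCR are per the labels' protocols and the series' design text. Amplification can lose or favour transcripts, and no molecules were counted, so the number of cells limits the precision. Each array was rescaled to a 2% trimmed mean of 500 (a factor of 27.6 for amacrine cell B1), set to a floor of 200 and log2 transformed.

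After removal of 64 control probe sets, 34958 had 1 gene symbol in the platform annotation, 932 had several and 9211 none. Of the symbols' probe sets 34754 matched RefSeq. Each of 18194 genes was represented by its brightest probe set, by mean log2 signal over all 22 cells. Signals of different genes come from different probes, so levels were not set against each other. The difference is the mean log2 signal of ganglion minus that of amacrine cells. No animal is named for any cell and cells are not replicates, so there are no p-values.

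Genes were named by rule: up to 20 with each pattern, up to 10 with no overlap in each direction, up to 5 of each list with the largest differences, the type markers that passed, and 8 per type that varied most. The lists and members were chosen with earlier results of these data known. Alternatives were other floors, scalings, probe set rules, filters, limits and averages, and leaving out each cell. The steps were tested on simulated data. Python 3.11.15, numpy 2.4.6, pandas 2.3.3, scipy 1.17.1 and matplotlib 3.10.9 were used.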

Additional observations from a re-analysis of the deposited data

Results flagged for a closer look

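Within each type, log2 signals of the 127 genes with values above were searched for a cell whose gap to its nearest neighbour exceeded Dixon's 95% critical value. This found 24 genes in ganglion cells and 31 in amacrine cells. Chance flags about 1 in 20 groups, and a gene at the floor in all cells but 1 is always found.
Ganglion cell F1 stood above the others of its type in Atp1b3 (265), Hsph1 (1566), Neurod1 (7198), Thtpa (616), Tug1 (2536) and Ypel2 (506). Ganglion cell A3 stood above the others of its type in Camk4 (419.6), Neurog2 (3813), Qk (888) and Thap12 (1378). Ganglion cell A6 stood above the others of its type in Pde7a (23160.0) and Scg2 (2207). Ganglion cell A6 stood below the others of its type in Dcc (15.3), Gjd2 (69.7), Rpl7 (802) and Rxrg (102). Ganglion cell C6 stood above the others of its type in Megf10 (253), Meis2 (12279), Nefl (52616), Nr4a2 (300.0), Rcan2 (6002), Slc17a6 (5647) and Top2a (936). Ganglion cell C6 stood below the others of its type in Scn3b (418).

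Amacrine cell D1 stood above the others of its type in Ablim1 (258), Cacng5 (25084), Ebf3 (490.5), Fgf15 (11958), Mcm6 (33789), Slc1a3 (5856), Sncg (11947) and Top2a (11507). Amacrine cell D1 stood below the others of its type in Atp1b3 (312). Amacrine cell F6 stood above the others of its type in Adcy1 (2722), Calb2 (834), Cblb (751), Cplx1 (2484), Dnmt3a (562), Flrt2 (707), Glrb (7385), Gnaq (2018), Malat1 (4213), Pdcd4 (1985), Prnp (3419), Rcan2 (854) and Zfhx4 (14084). Amacrine cell B1 stood above the others of its type in Chat (15049), Ddah1 (206), Irx6 (206), Nefl (9499.7), Rims2 (8980.5), Rsbn1 (213) and Scn3a (376). Amacrine cell G3 stood above the others of its type in Dram2 (260.5) and Tdrkh (247).

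The trimmed mean of amacrine cell B1 as deposited, 18.1, was far below those of the other 4 amacrine cells. No cell was found for the number of genes held.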

How the results depend on the processing

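No named gene at 8-fold or more changed direction under 20 alternatives, but 14 of the other named genes did under at least 1, as did the medians of 13 of 30 lists. Of the 77 named genes past 8-fold, 23 were under it without some cell, 44 with the mean over probe sets, 23 with a floor of 400, 11 with the signals as deposited and 0 to 6 under each other setting that kept all cells. Of 192 named genes under each, the differences moved by less than the spread between cells in 3744 cases and by more in 96. Settings that change only the filter or the limit for a held gene leave these differences unchanged by construction. The spread was often wide, so a gene can fall under 8-fold and still count as moved by less. Beside 225 genes higher and 70 lower in ganglion cells, a floor of 100 gave 115 lower, and a floor of 400 gave 101 higher and 29 lower. The signals as deposited gave 26 lower and 1 gene of the amacrine pattern (5 in the main setting), with a median difference of 0.82 over all genes. Quantile normalization gave 10 genes of the amacrine pattern. The mean over probe sets gave 78 higher, 32 lower and 14 of the ganglion pattern (32 in the main setting), and medians over cells 667 and 277. A limit of 2000 for a held gene gave 17 of the ganglion pattern. Leaving out each cell in turn gave 192 to 309 higher, 69 to 140 lower, 35 to 100 genes of the ganglion pattern and 6 to 13 of the amacrine pattern, which by construction ask fewer cells to agree. The share of the ganglion pattern held by embryonic ganglion cells then ranged from 33.3% to 52.2%. No paired analysis was possible because the labels give cells no replicate numbers and no test was made. With 4 and 5 cells from an unknown number of animals, differences between types cannot be told apart from differences between animals or between the kinds of ganglion and amacrine cell picked. The part of transcripts lost in amplification was not tested.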

Other observations

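Some genes were held by 2 ganglion cells and by no amacrine cell, which leaves them outside the patterns above. All genes in this section were picked after their values were seen. Cells A3 and F1 alone held 120 such genes, with Ebf2, an EBF factor, at 4812, 99.4, 16.5 and 1388, Cntn2, an axonal adhesion molecule, at 9468, 31.1, 66.7 and 1298, and Scn1a, a sodium channel alpha subunit, at 4648, 7.9, 7.8 and 2272 in the 4 ganglion cells. Cells C6 and F1 alone held 93, with Ebf1 at 42.1, 5004, 449 and 2339 and Elavl4, an RNA-binding protein of neurons, at 677, 1206, 546 and 1599. Ganglion cell F1 thus held Ebf1, Ebf2 and Ebf3, whereas A3 held Ebf2 and Ebf3, C6 held Ebf1 and Ebf3, and A6 held Ebf3. Cells A6 and F1 alone held 50, among them Alcam, an adhesion molecule, at 9.2, 154, 1295 and 1280.0.

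Amacrine cells F6 and B1 alone held 79 genes that no ganglion cell held. Tbx2, a T-box factor, was at 16.4, 95.6, 3699.8, 13.6 and 3126 and Plxna2, a semaphorin receptor, at 44.8, 89.7, 6793, 51.3 and 5039.6 in the 5 amacrine cells. Cells F6 and G3 alone held 78, with Chga, or chromogranin A, at 31.1, 77.7, 3700.0, 1004 and 35.9. Kdr, a receptor of vascular endothelial growth factor, was held by D1 and F6, at 93.9, 1413, 4222, 66 and 8.4, and no ganglion cell held any of the 15 vascular, blood and immune markers. Each cell also held genes that none of the other 8 held. Their number was 286, 233, 223 and 381 in ganglion cells A3, C6, A6 and F1, against 125, 172, 375, 232 and 177 in amacrine cells A4, D1, F6, G3 and B1, highest in the cells that held most genes.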
